A study of Mus musculus with 16 samples.

Results

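Ascl2-high and Ascl2-zero cells are 2 sets of cells from 1 single-cell library of mouse colon tumour organoids, chosen by how much Ascl2 RNA each cell held. Only the control library was used to choose them. Of its 3618 barcodes, 2444 passed as cells, with at least 1000 detected genes, at least 10000 UMIs (unique molecular identifiers, which count captured RNA molecules) and at most 20% UMIs of mitochondrially encoded genes. A cell was Ascl2-high when it held 2 or more Ascl2 UMIs per 10000 of its UMIs, and Ascl2-zero when it held none. This gave 473 Ascl2-high cells (19.4% of kept cells) and 719 Ascl2-zero cells (29.4%), and left 1252 intermediate cells (51.2%). Both matrices of the series together hold 5696 barcodes. The organoids are epithelial cultures grown from colon tumours of mice given AOM and DSS, a carcinogen and a colon irritant that together produce colitis-associated tumours. The question named in the series title is the part of KMT9, a histone methyltransferase, in growth and stemness of colorectal cancer. The control carries the genotype KMT9wt/wt and no TAM, and the other library carries KMT9ko/ko with TAM, both from tumour organoids at passage 14. The labels do not spell out TAM. Each group has 8 records and 1 deposited matrix, and was treated as 1 library. Whether separate cultures stand behind the records is not known, so nothing below rests on replicates. The labels name no other cell type in the cultures, and the sources used here do not give the age, sex or strain of the mice.

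Ascl2 encodes a basic helix-loop-helix (bHLH) transcription factor that in the normal intestine is restricted to stem cells at the base of the crypts, where Wnt signalling induces it. Such factors bind DNA as pairs with E proteins (TCF3, TCF4 and TCF12, encoded by Tcf3, Tcf4 and Tcf12), at E-box sequences of the form CANNTG, and ID proteins keep E proteins from DNA. In colon tumours Ascl2 is known as a marker of crypt-like, Wnt-driven cells, as opposed to cells in a fetal-like or regenerative state.

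Promoter sequences of 6 genes are shown: Ascl2, which chose the cells, the 4 genes with the largest ratios toward Ascl2-high cells and Mt4, with the lowest ratio, all among genes at 50 or more CPM in either set. Each is the 250 bases before the RefSeq start of the gene in GRCm38.p6, 5′ to 3′ on the strand of the gene. Capitals mark the E-box CAGCTG, which reads the same on both strands. This word is in 4271 of 32851 RefSeq promoter windows of that length (13.0%). Of the 12 genes with the largest ratios toward Ascl2-high cells, 9 have a window and 4 of these hold the word (Cdx2, Lgals4, Hpgd and Lypd8). Of the 12 with the smallest ratios, 10 have a window and 1, that of Mt4, holds it. The windows of Ascl2 and of the 3 largest ratios, Rgcc, Isx and Sprr2a3, do not. Other E-boxes of the form CANNTG were not searched for and stand unmarked, also in the Ascl2 window. Letters alone do not show a site that is bound.
Ascl2, chr7:142969265-142969514, minus strand: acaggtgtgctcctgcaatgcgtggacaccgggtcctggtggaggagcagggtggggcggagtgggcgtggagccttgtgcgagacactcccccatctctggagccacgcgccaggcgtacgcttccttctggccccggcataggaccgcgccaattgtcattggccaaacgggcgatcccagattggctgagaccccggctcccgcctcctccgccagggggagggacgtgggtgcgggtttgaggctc
Rgcc, chr14:79301636-79301885, minus strand: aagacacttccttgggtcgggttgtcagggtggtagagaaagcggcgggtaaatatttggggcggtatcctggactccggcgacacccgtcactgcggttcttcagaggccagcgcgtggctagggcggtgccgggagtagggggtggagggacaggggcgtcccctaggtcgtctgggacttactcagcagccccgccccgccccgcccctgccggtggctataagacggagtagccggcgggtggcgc
Isx, chr8:74872924-74873173, plus strand: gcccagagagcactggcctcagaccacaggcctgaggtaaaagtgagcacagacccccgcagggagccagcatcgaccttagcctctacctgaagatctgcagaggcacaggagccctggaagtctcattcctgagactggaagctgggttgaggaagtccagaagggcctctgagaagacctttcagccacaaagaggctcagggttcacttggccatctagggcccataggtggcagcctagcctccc
Sprr2a3, chr3:92285054-92285303, plus strand: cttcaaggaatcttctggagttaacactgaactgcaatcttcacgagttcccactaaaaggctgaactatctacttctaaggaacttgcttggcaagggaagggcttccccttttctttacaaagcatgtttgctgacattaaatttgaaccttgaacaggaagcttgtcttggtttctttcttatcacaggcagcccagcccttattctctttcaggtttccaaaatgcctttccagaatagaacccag
Cdx2, chr5:147307250-147307499, minus strand: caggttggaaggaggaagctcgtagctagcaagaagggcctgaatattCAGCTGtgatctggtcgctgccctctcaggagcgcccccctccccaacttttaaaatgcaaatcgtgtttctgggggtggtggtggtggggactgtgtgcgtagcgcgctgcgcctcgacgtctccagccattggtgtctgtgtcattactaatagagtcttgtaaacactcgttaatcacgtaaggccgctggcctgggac
Mt4, chr8:94136954-94137203, plus strand: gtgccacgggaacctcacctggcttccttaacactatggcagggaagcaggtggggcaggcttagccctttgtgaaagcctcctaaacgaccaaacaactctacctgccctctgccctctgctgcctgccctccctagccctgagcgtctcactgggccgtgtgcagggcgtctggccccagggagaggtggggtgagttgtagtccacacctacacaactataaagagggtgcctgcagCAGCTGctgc

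The Ascl2-high set held 13695697 UMIs in all, the Ascl2-zero set 17947042 and the intermediate set 38094374. Median depth was 25603 UMIs per Ascl2-high cell and 23458 per Ascl2-zero cell, with 5034 and 4675 detected genes, and mitochondrial shares of 2.80% and 3.04%. Whether a cell counted as Ascl2-zero also depended on depth: after each kept cell was thinned at random to 10000 UMIs, 509 of 1252 intermediate cells (40.7%) and 13 of 473 Ascl2-high cells had no Ascl2 UMI left. Barcodes with fewer UMIs or genes than the minimum held 78.8 CPM of Ascl2 (counts per 1000000 UMIs), with a UMI in 11.2% of them. The intermediate set held 80.4 CPM, and how far free RNA fed the low Ascl2 counts was not tested. The targeted gene N6amt1, which encodes the catalytic subunit of KMT9, stood at 38.3 and 34.7 CPM in Ascl2-high and Ascl2-zero control cells and at 5.73 and 5.97 CPM in the same sets of the knockout library. Of the barcodes, 498 occur in both matrices, among them 40 of the Ascl2-high and 25 of the Ascl2-zero control cells. Without them the sets gave 363 genes higher and 385 lower, beside the 368 and 388 given below.

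Both sets were epithelial. Epcam, an epithelial adhesion gene, stood at 902 CPM in Ascl2-high and 920.3 CPM in Ascl2-zero cells, and the claudin gene Cldn7 at 949 and 869 CPM. The simple keratin gene Krt8 stood at 2583 and 3301 CPM. Among 5 immune markers Cd3e and Itgam had no UMI in either set, and the 5 summed to 8.32 and 11.8 CPM, almost all of it Cd68. Of 4 fibroblast markers Col3a1 and Dcn had none, and the sums were 0.0730 and 0.111 CPM. Endothelial markers summed to 3.87 and 10.2 CPM, almost all Cdh5, with Kdr at 0. Goblet markers summed to 8.10 and 18.7 CPM. The tuft marker Dclk1 had a UMI in 0 of 473 and 0 of 719 cells, counts that leave room for 0.634% and 0.417% of cells with one.

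In the control, 7761 genes reached 10 CPM in either set. Of these, 368 were higher in Ascl2-high cells by 1.5-fold or more (4.74%) and 388 were lower by as much (5%), 9.74% in either direction, which left 7005 within 1.5-fold. These percentages are the background against which counts of gene lists are read. The 1.5-fold line sorts genes by size and is not a test: with 1 library and cells that are not replicates, no p-value was possible. Intervals are 95% intervals for counting error only. For all 368 and 388 genes they excluded a ratio of 1. The minimum CPM and the 1.5-fold line together bring this about, so it is no support for any single gene. The median log2 ratio of all measured genes was 0.06, with quartiles of -0.13 and 0.24. Intermediate cells lay between both sets for 358 of the 368 higher genes and 377 of the 388 lower ones. These genes were chosen for the difference between the 2 sets, so another set is likely to lie between them. The share over all measured genes was not counted, and no graded relation is read from these numbers. At a 2-fold line 89 genes were higher and 149 lower.

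**Figure D1:**
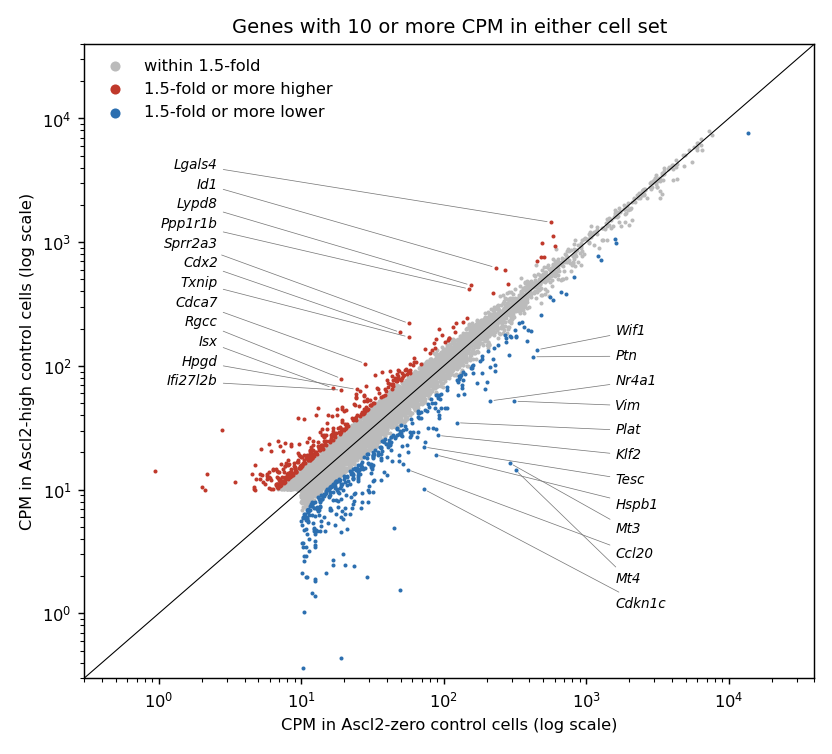
CPM of each measured gene in Ascl2-zero (horizontal) and Ascl2-high (vertical) control cells, both axes logarithmic, with 1 point per gene and the line of equal values. Red points are the 368 genes 1.5-fold or more higher and blue points the 388 that are lower. The 12 largest and 12 smallest ratios among named genes with 50 or more CPM in either set are labelled, and Mt3 and Mt4 lie farthest below the line among them.

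Transcription factor genes of intestinal identity were among those with the largest ratios toward Ascl2-high cells. Cdx2, the homeobox factor that specifies intestine, stood at 187 CPM in Ascl2-high, 78.9 CPM in intermediate and 49.5 CPM in Ascl2-zero cells. That is 3.77-fold higher in Ascl2-high cells (interval 3.49 to 4.07), and in cells thinned to 10000 UMIs 68.9% against 32.0% held a Cdx2 UMI. Isx, an intestine-specific homeobox gene that controls vitamin A uptake, stood at 66.4, 30.9 and 16.6 CPM, 4.0-fold higher (3.5 to 4.57). The related factor gene Cdx1 stood at 89.7, 51.6 and 36.8 CPM, 2.44-fold higher (2.22 to 2.68). Hnf4a, a nuclear receptor of gut and liver epithelium, stood at 30.7, 17.3 and 15.3 CPM. Its log2 ratio of 1.01 became 0.48 when each cell was thinned to 10000 UMIs, below the 1.5-fold line, and Hnf4a overlaps an antisense gene, Hnf4aos. Of 25 identity factors 17 were measured, 8 were higher (among them Ehf, Elf3 and Gata6 beside the 4 above) and 0 lower. The median log2 ratio of the list was 0.55, beside 0.06 for all measured genes. Cdx2 lies on chromosome 5 from 147300805 to 147307270 and Isx on chromosome 8 from 74873173 to 74893506 (mm10).

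Genes that act on bHLH factors went both ways. The ID genes, which encode inhibitors of bHLH pairing and are targets of BMP signalling, were higher in the 3 cases that could be measured. Id1 stood at 624 CPM in Ascl2-high, 299.8 CPM in intermediate and 231 CPM in Ascl2-zero cells, 2.70-fold higher (2.61 to 2.81). Id2 stood at 598, 353 and 268 CPM (2.24-fold), and Id3 at 979, 550.3 and 492 CPM (1.99-fold). Of the E protein genes, Tcf4 was lower, at 102, 125 and 161 CPM, and Tcf12 was lower, at 43.1, 48.9 and 66.0 CPM. Their log2 ratios of -0.66 and -0.61 became -0.29 and -0.22 without the metallothionein-rich cells described further on, inside the 1.5-fold line. The third, Tcf3, differed little, with 92.7, 88.3 and 85.4 CPM (log2 ratio 0.12). Hes1, a repressor induced by Notch, was lower, at 379, 541 and 719 CPM (log2 ratio -0.92, interval -0.97 to -0.88). Hes6, which counters Hes1, was on the higher side. In all, 4 of 10 measured members of this list (24 in all) were higher and 3 lower, with a median of 0.17. BMP and TGF-beta targets went both ways too, with 4 of 12 higher (the 3 ID genes and Smad6) and 3 lower. The ligand genes Bmp2, at 7.96 against 26.9 CPM, and Bmp7, at 22.9 against 55.4 CPM, were among the lower ones.

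Genes of DNA replication were higher in Ascl2-high cells as a group. Of 35 measured S phase genes (39 in the list) 25 were higher and 0 lower, all 35 ratios were above 0 on the log2 scale, and the median was 0.67. Ung, a uracil-DNA glycosylase of replication repair, stood at 63.0 CPM in Ascl2-high and 26.0 CPM in Ascl2-zero cells. Uhrf1, which carries DNA methylation through replication, stood at 43.5 and 20.1 CPM, the origin licensing gene Cdc6 at 14.2 and 6.80 CPM, and the helicase gene Mcm6 at 138 and 73.7 CPM. Cdca7, a replication-coupled chromatin factor that is also used as a marker of intestinal stem cells, stood at 105, 48.1 and 28.1 CPM, 3.72-fold higher (3.36 to 4.12), with a UMI in 57.7% against 21.6% of thinned cells. The G2 and M phase list moved less: 2 of 34 measured members (40 in the list), Aurkb and Bub1b, were higher and 0 lower, with a median of 0.33. Mki67, a proliferation marker, stood at 22.1 and 17.7 CPM, and Pcna, the replication clamp gene, at 103 and 88.0 CPM. The median share of UMIs that fell on the S phase list was 0.134% per Ascl2-high cell, 0.0959% per intermediate and 0.0525% per Ascl2-zero cell. Among cells at or below the median of that share (184 against 452 cells) the S phase median was 0.29. These cells were chosen by the same list, so a lower median follows from the choice, and S phase genes still differed. The log2 ratios there were 2.18 for Cdx2, 2.29 for Isx, 2.25 for Cdca7 and 1.79 for Id1. Among all cells they were 1.91, 2.00, 1.89 and 1.43. What part the cell cycle has in these ratios was not tested.

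Markers of intestinal stem cells did not move as 1 group. Of 29 genes 21 were measured, 4 were higher (Cdca7, Hopx, Lrig1 and Slc12a2) and 3 lower (Tnfrsf19, Zbtb38 and Ephb3), with a median of 0.29. Lgr5, the Wnt-potentiating receptor that marks crypt base stem cells, was too low to count as measured, at 6.64 CPM in Ascl2-high and 3.45 CPM in Ascl2-zero cells, from 91 and 62 UMIs. Its ratio was 1.92-fold (1.38 to 2.70). The stem cell marker Olfm4 had a UMI in 0 of 473 and 0 of 719 cells (limits 0.634% and 0.417%). Smoc2, another crypt base gene, was at 147, 134 and 210 CPM (log2 ratio -0.51). Lrig1, a brake on EGF receptors that marks stem cells, stood at 13.4 against 8.30 CPM. The EPH receptor genes that position cells along the crypt stood at 19.7 against 16.2 CPM (Ephb2) and at 11.2 against 17.3 CPM (Ephb3). Sox9, a crypt factor gene, stood at 94.9 against 69.0 CPM.

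Wnt targets and feedback genes, which are often read together with Ascl2, held no member past the 1.5-fold line on the higher side in these sets. Of 21 measured members (33 in the list) 0 were higher and 3 lower, and the median was -0.28, or 0.02 without the metallothionein-rich cells. Wif1, a secreted Wnt antagonist, stood at 135 CPM in Ascl2-high, 229.9 CPM in intermediate and 453 CPM in Ascl2-zero cells (log2 ratio -1.74, interval -1.82 to -1.67). The Wnt ligand gene Wnt10a stood at 78.8 against 128 CPM. Wnt signalling directly induces Axin2, which was within the 1.5-fold line at 126 against 87.7 CPM (log2 ratio 0.53), as was Ccnd1, which encodes cyclin D1, at 657 against 442 CPM (0.57). Axin2 was past the line without those cells (0.62) and with high cells at 3 or more Ascl2 UMIs per 10000 (0.64), and Ccnd1 in 3 alternatives, at most at 0.75. Rnf43 and Znrf3, ligases that remove Wnt receptors, had log2 ratios of 0.42 and -0.23, and Myc one of 0.16.

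Genes of colonocytes and enterocytes, the absorptive cells, were more often higher than lower in Ascl2-high cells: of 17 measured members (36 in the list) 8 were higher and 1 lower, with a median of 0.38. That median was -0.05 with no minimum CPM and 0.93 when the 10 cells richest in each gene were left out of each set. Summed over all 36 genes, the list held 11250 CPM in Ascl2-high and 12264 CPM in Ascl2-zero cells, so the sum leaned the other way. Fabp2, a fatty acid binding protein gene, stood at 21.2 against 5.18 CPM, and Guca2b, which encodes uroguanylin, at 12.3 against 5.13 CPM. Lypd8, which keeps bacteria off the colon surface, stood at 449 CPM in Ascl2-high, 118 CPM in intermediate and 154 CPM in Ascl2-zero cells. Its UMIs were uneven, with 82.4% of those in Ascl2-zero cells in 10 cells, and without the 10 richest cells of each set its log2 ratio went from 1.54 to 3.53. Car1, a carbonic anhydrase gene, stood at 92.4 against 76.2 CPM, of which 10 cells in each set held 89.2% and 96.9%. Its log2 ratio of 0.28 became 2.10 without the 10 richest cells of each set and -1.72 among cells of 20000 to 40000 UMIs. Krt20, a keratin gene of late colonocytes, was too low to count as measured, at 4.02 against 8.41 CPM. The colonocyte markers Clca4a, at 0.219 against 5.46 CPM, and Muc3, at 0.803 against 3.01 CPM, were also too low and lay on the lower side. Slc26a3, another such marker, stood at 0.219 against 0.223 CPM. Outside this list, Lgals4, Ppp1r1b and Hpgd were among the 12 largest ratios. The lectin gene Lgals4, of the epithelial list, stood at 1450.3, 931 and 563 CPM, 2.57-fold higher (2.51 to 2.64), with a UMI in 94.7% against 77.2% of thinned cells. Ppp1r1b, an inhibitor of protein phosphatase 1, stood at 419, 229 and 151 CPM, and Hpgd, which breaks down prostaglandins, at 64.5, 43.2 and 24.6 CPM. Ppp1r1b and Fabp2 overlap a gene on the opposite strand, and the sources used here do not say whether counting used strand.

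The others of the 12 largest ratios were of mixed function. Rgcc, a regulator of the cell cycle, stood at 79.0, 32.2 and 19.1 CPM in Ascl2-high, intermediate and Ascl2-zero cells, 4.13-fold higher (3.66 to 4.68). Sprr2a3, of the small proline-rich family, stood at 221, 90.4 and 57.0 CPM, and Txnip, an inhibitor of glucose uptake that overlaps Gm15441 on the opposite strand, at 171, 74.7 and 56.7 CPM. Ifi27l2b, an interferon-inducible gene, stood at 63.8, 27.1 and 19.1 CPM. Sprr2a3 belongs to a family of near-identical copies, so its reads may be shared with neighbours. Interferon response genes held 6 higher and 0 lower of 19 measured (26 in the list), with a median of 0.46. Of these Oasl2, an antiviral gene, stood at 39.9 against 17.7 CPM. Ifit1, of the same response, stood at 65.6 against 38.5 CPM and Ifit3 at 27.5 against 14.1 CPM, with 74.7% of the Ifit3 UMIs of the Ascl2-zero set in 10 cells. Among cells of 20000 to 40000 UMIs the log2 ratios of Ifit1 and Ifit3 were 0.39 and 0.22, inside the 1.5-fold line, and the list median was 0.10.

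**Figure D2:**
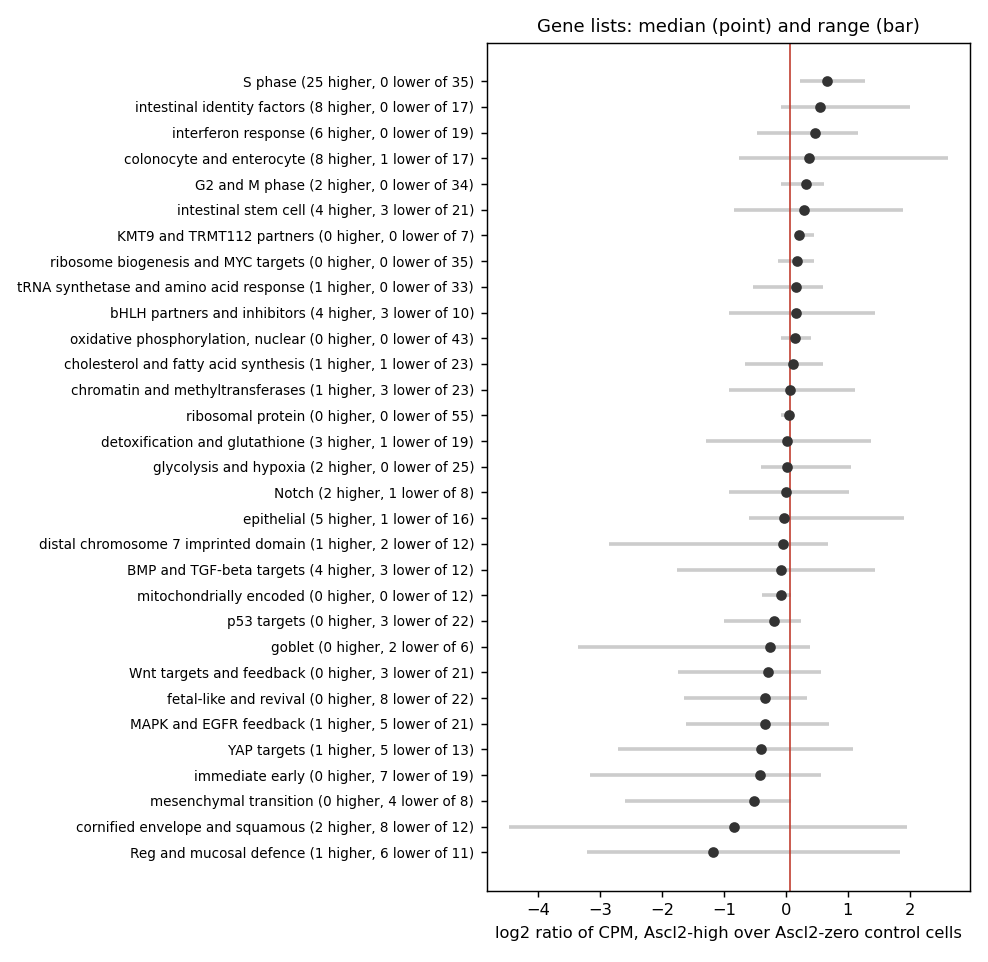
Log2 ratio of CPM, Ascl2-high over Ascl2-zero control cells, for each gene list with 5 or more measured members. Points are list medians, grey bars run from the lowest to the highest member, and the red line marks 0.06, the median of all measured genes. S phase lies highest at 0.67, and Reg and mucosal defence lowest at -1.17.

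The largest differences of all lay on the lower side, in the metallothionein genes Mt3 and Mt4, which encode zinc-binding proteins typical of brain and of stratified epithelium. Mt4 stood at 14.4 CPM in Ascl2-high, 102 CPM in intermediate and 319.9 CPM in Ascl2-zero cells (log2 ratio -4.48, interval -4.69 to -4.27). Mt3 stood at 16.4, 94.0 and 292 CPM (-4.16). These UMIs were concentrated: cells with 5 or more Mt3 and Mt4 UMIs together after thinning made up 154 of 719 Ascl2-zero cells (21.4%), 84 intermediate cells (6.71%) and 5 Ascl2-high cells (1.06%). Without those cells 263 genes were higher and 325 lower, and the log2 ratios of 4 of the genes below moved closer to 0 by more than 1.5-fold. Cdkn1c went from -2.85 to -1.46, Vim from -2.59 to -1.63, Wif1 from -1.74 to -1.11 and Ptn from -1.84 to -1.24, each still beyond the 1.5-fold line.

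Cdkn1c, which encodes the cell cycle inhibitor p57, stood at 10.1 CPM in Ascl2-high, 23.1 CPM in intermediate and 72.7 CPM in Ascl2-zero cells, with a UMI in 8.46% against 24.5% of thinned cells. Vim, the intermediate filament gene of mesenchymal cells, stood at 51.9, 138 and 313 CPM (log2 ratio -2.59, interval -2.71 to -2.48), with a UMI in 21.6% against 48.0% of thinned cells. Its lower level in Ascl2-high cells came with other genes used as signs of mesenchymal transition: of 8 measured (19 in the list) 4 were lower and 0 higher, with a median of -0.51. Fn1, fibronectin, stood at 3.87 against 12.5 CPM and the urokinase receptor gene Plaur at 91.6 against 230.4 CPM. Ptn, a heparin-binding growth factor, stood at 119, 203.5 and 425 CPM, and Plat, tissue plasminogen activator, at 34.8, 62.3 and 124 CPM. The fibroblast markers at or near 0 given above lay beside these values in both sets.

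Squamous and cornified envelope genes were lower in 8 of 12 measured members (29 in the list) and higher in 2, Sprr2a3 and Krt4, with a median of -0.84. Beside Mt4 the lower ones held the keratin genes Krt17, at 2.48 against 20.4 CPM, and Krt90, at 2.41 against 23.4 CPM. In the list of fetal-like and revival genes, which are switched on in regenerating gut, 8 of 22 measured (25 in the list) were lower and 0 higher, with a median of -0.33. Sprr1a stood at 7.30 against 18.2 CPM, Spp1, osteopontin, at 6.06 against 18.9 CPM, Tubb6, a tubulin gene, at 58.6 against 126 CPM and Anxa1, an annexin of injured epithelium, at 776 against 1208.5 CPM. The most used markers of that state did not differ by 1.5-fold, Ly6a with 1709 against 1590.4 CPM and Clu with 70.2 against 87.5 CPM. YAP targets had 5 lower and 1 higher of 13 measured (20 in the list; median -0.40), led by the caveolin genes Cav1, at 1.90 against 12.5 CPM, and Cav2, at 29.4 against 66.4 CPM. The higher one was Nuak2, a kinase gene, at 12.3 against 5.79 CPM.

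Immediate early genes, a rapid response to growth factors and to handling of cells, were lower in 7 of 19 measured members (20 in the list) and higher in 0, with a median of -0.42. Nr4a1, an orphan nuclear receptor of this class, stood at 52.2, 132 and 213 CPM in Ascl2-high, intermediate and Ascl2-zero cells (log2 ratio -2.03). Klf2 stood at 27.5, 65.2 and 91.1 CPM, and Egr3 at 1.39 against 12.5 CPM. MAPK and EGFR feedback genes had 5 lower and 1 higher of 21 measured (27 in the list; median -0.34). Fosl1, an AP-1 subunit gene, stood at 24.2 against 73.9 CPM, the ETS factor gene Etv5 at 6.72 against 19.2 CPM, Spry2, an inhibitor of receptor signalling, at 6.35 against 17.6 CPM and the phosphatase gene Dusp5 at 27.5 against 58.6 CPM. Genes of mucosal defence were lower in 6 of 11 measured members (23 in the list), with a median of -1.17, and the 1 higher was Pigr, which moves IgA into the gut lumen, at 24.8 against 6.91 CPM. The lower ones were led by the chemokine genes Cxcl5, at 4.89 against 45.1 CPM, and Ccl20, at 14.5 against 55.8 CPM, where 10 cells held 60.1% of the Ccl20 UMIs of the Ascl2-zero set. Hspb1, a small heat shock protein gene, stood at 19.1, 55.7 and 87.7 CPM, and Tesc, a calcium-binding protein gene, at 22.1, 42.7 and 72.8 CPM, the last of the 12 smallest ratios.

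Ascl2 lies in an imprinted domain of distal chromosome 7, from 142966829 to 142969264 on the minus strand. Its measured neighbours did not move with it as a block. Of 20 genes in the list for this domain 12 were measured, 1 was higher and 2 lower, with a median of -0.04. The nearest measured neighbour, Cd81, a tetraspanin gene 92.3 kb away from midpoint to midpoint, stood at 1251 against 1182 CPM. Th and Tspan32 lie nearer but were too low to count as measured, and they went opposite ways. Th was on the higher side, from 41 and 13 UMIs (log2 ratio 2.05, interval 1.12 to 3.07). Tspan32 was on the lower side, from 25 and 95 UMIs (-1.54, interval -2.23 to -0.89). In the knockout library their log2 ratios were 4.58 for Th and 0.24 for Tspan32. The potassium channel gene Kcnq1 was higher, at 63.0 against 39.1 CPM, but several antisense transcripts overlap it, among them Kcnq1ot1, which stood at 17.3 against 13.8 CPM. Cdkn1c, 492 kb from Ascl2, was the lower one with the largest difference, and the receptor gene Tnfrsf23 was lower at 4.67 against 12.8 CPM. Phlda2, a growth-restraining imprinted gene, stood at 59.6 against 74.9 CPM. Igf2 had no UMI in either set.

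Housekeeping lists moved little. Ribosomal protein genes had a median of 0.05 with 0 of 55 beyond the 1.5-fold line, and 35 ribosome biogenesis and MYC target genes a median of 0.19 with 0 beyond it. Nuclear genes of oxidative phosphorylation had a median of 0.15 (0 of 43) and the mitochondrially encoded ones -0.07 (0 of 12). The partners of TRMT112, the group KMT9 belongs to, had a median of 0.22 with 0 of 7 beyond the line, and p53 targets one of -0.19 with 3 of 22 lower. Among p53 targets Cdkn1a, which encodes the inhibitor p21, stood at 643 against 685 CPM.

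Over 6 steps of Ascl2 in cells thinned to equal depth, the levels of the genes named above can be followed across more than 1 boundary. The steps held 1241, 557, 273, 142, 100 and 131 cells with 0, 1, 2, 3, 4 and 5 or more Ascl2 UMIs. Cdx2 stood at 63.9, 95.3, 125, 141, 203 and 253 CPM along them. Id1 stood at 279.9, 349, 444, 533, 632 and 712 CPM, so both were higher at each further step. That held for 5 of the 12 genes with the largest ratios (Cdca7, Ppp1r1b and Lgals4 beside these), and 0 of the 12 with the smallest ratios were lower at every step. All were chosen for their ratio in these same cells by the same Ascl2 counts, so an order over the steps follows in part from the choice. The share over all measured genes was not counted, and no graded relation is read from the steps. Rgcc, with the largest ratio, stood at 27.7, 37.5, 53.5, 28.9, 76.0 and 113 CPM, and Sprr2a3 at 57.5, 95.9, 127, 129.6, 228 and 189 CPM. Cdca7 stood at 36.7, 54.0, 71.8, 71.8, 89.0 and 147 CPM. On the lower side Vim went from 290.2 CPM at 0 Ascl2 UMIs to 182, 125, 87.3, 61.0 and 63.4 CPM, and Wif1 from 414 to 258, 242, 194, 139 and 149 CPM. Mt4 had its largest drop between 0 and 2 Ascl2 UMIs, at 252, 89.9 and 23.8 CPM, followed by 24.6, 9.0 and 9.92 CPM. The stem cell gene Smoc2 showed no such order, at 201, 179, 149, 175, 148 and 178 CPM.

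**Figure D3:**
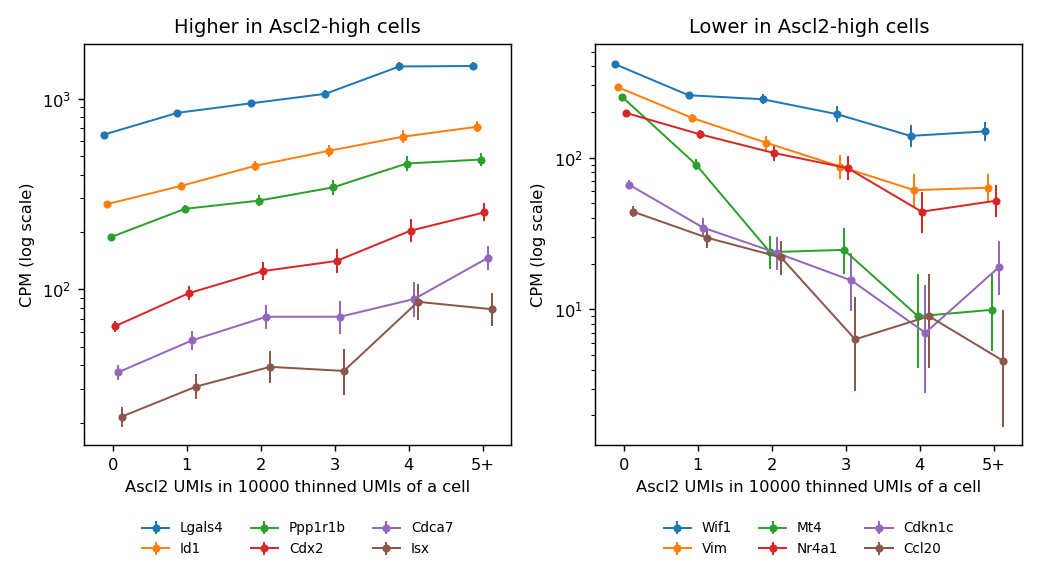
CPM (logarithmic axis) of 6 higher and 6 lower genes in kept control cells grouped by their Ascl2 UMIs after thinning to 10000 UMIs. Points are CPM of summed thinned UMIs, bars are 95% Poisson intervals for counting error, and points are shifted sideways so that bars do not overlap. Lgals4, Id1, Ppp1r1b and Cdx2 are higher at each further step up to 4 Ascl2 UMIs, while Vim and Wif1 are lower at each up to 4.

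At the boundary itself, the 50 cells just inside (2.00 to 2.17 Ascl2 UMIs per 10000) and the 50 just outside (1.81 to 2.00) held 150.5 and 109 CPM of Cdx2 and 102 and 73.5 CPM of Cdca7. They held 396 and 401 CPM of Id1, 50.6 and 173 CPM of Vim, and 116 and 142 CPM of Wif1. Isx stood at 68.3 and 40.5 CPM, Mt4 at 6.57 and 12.7 CPM and Cdkn1c at 4.60 and 13.5 CPM. Counting intervals inside and outside overlapped for Cdca7, Id1, Wif1, Mt4 and Cdkn1c, and did not for Cdx2, Isx and Vim.

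The knockout library was not used to choose the cells and gives the same comparison a second time, with fewer high cells. Ascl2 was lower there, at 38.3 CPM in kept cells against 117 CPM in the control, and 43 of 1313 kept cells were Ascl2-high (3.27%) and 790 Ascl2-zero (60.2%). Among 7957 measured genes 977 were higher in the Ascl2-high set (12.3%) and 872 lower (11%), 23.2% in either direction, so the background was larger than in the control. Of 283 genes higher in the control contrast and measured in both libraries, 188 were higher in the knockout contrast as well (66.4% of the 283 and 22.5% of 836), beside 11.2% of all 7452 genes measured in both, and 7 were lower. Of 377 lower genes 231 were lower as well (61.3% of the 377 and 31.6% of 732), beside 9.82% of all, and 3 were higher. Without shared barcodes, which left 33 and 587 cells, 198 of 275 higher genes were higher as well, beside 11.6% of all 7384, and 3 were lower. Of 379 lower genes 247 were lower as well, beside 10.5% of all, and 3 were higher. Whether the size of any difference depended on the library was not tested.

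In that library Cdx2 stood at 102 CPM in Ascl2-high and 14.0 CPM in Ascl2-zero cells (log2 ratio 2.87, interval 2.56 to 3.18), and Cdca7 at 59.8 and 13.1 CPM (2.19). Hpgd stood at 58.1 and 10.9 CPM, Isx at 21.3 and 6.88 CPM, and Ppp1r1b at 174 and 48.1 CPM. In the Ascl2-high set of that library Hpgd had 71 UMIs and Isx 26. There 10 cells held 94.4% of the Hpgd, 76.9% of the Isx, 72.8% of the Cdx2, 67.0% of the Ppp1r1b and 57.5% of the Cdca7 UMIs. For Rplp0, a ribosomal protein gene, that share was 34.1%. On the lower side Vim stood at 61.4 and 417 CPM (-2.77), Mt4 at 70.4 and 737 CPM (-3.39), Wif1 at 157 and 587 CPM (-1.90) and Cdkn1c at 17.2 and 75.7 CPM (-2.14). The identity factors had a median of 0.63 there, with 9 higher and 1 lower of 17. S phase genes had 32 of 33 higher (median 1.56), and 0.99 with 23 of 29 higher without shared barcodes. The G2 and M phase list, at 1.56 with 36 of 36 higher, stood at 0.40 with 8 of 24 higher when shared barcodes were left out. The colonocyte list changed sign with them, from -0.24 to 0.36. Interferon genes went the other way than in the control, with 0 higher and 10 lower of 21 and a median of -0.44, and 0 higher and 7 lower without shared barcodes. Sprr2a3 and Ifi27l2b, higher in the control, had log2 ratios of -0.12 and -0.39 in the knockout library, and 1.40 and 0.91 without shared barcodes.

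**Figure D4:**
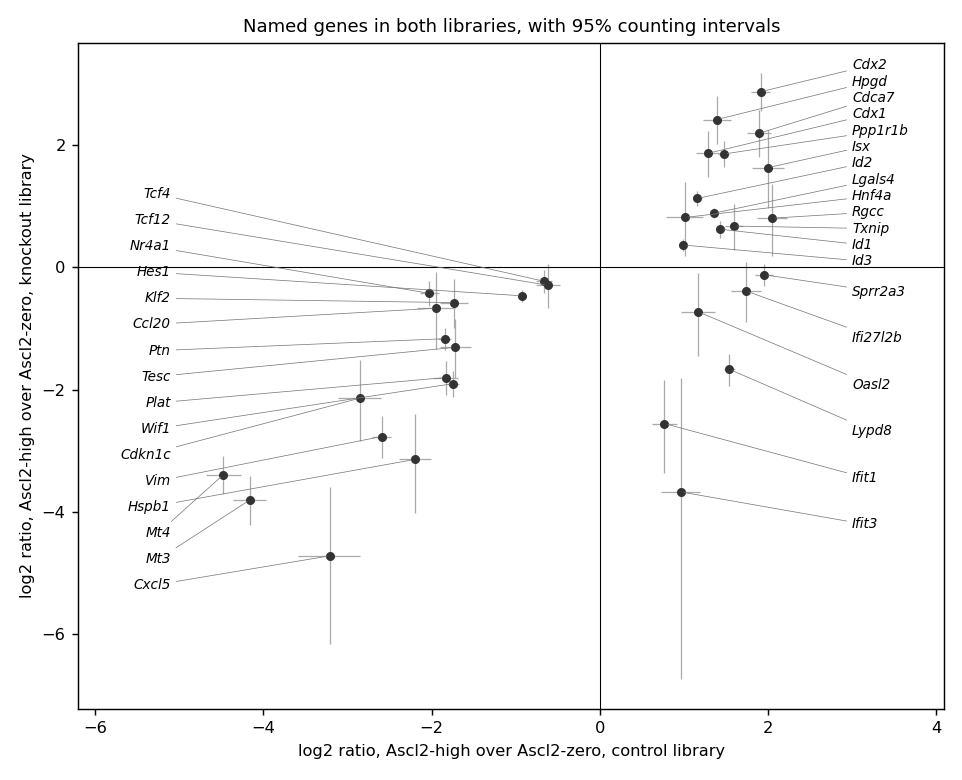
Log2 ratio of CPM, Ascl2-high over Ascl2-zero cells, in the control (horizontal) and knockout (vertical) library for named genes measured in both. Points are single genes and bars 95% intervals for counting error. Cdx2, Cdca7 and Isx lie at the upper right and Mt3, Mt4 and Vim at the lower left, while Lypd8, Oasl2, Ifit1 and Ifit3 lie at the lower right.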

How the data were processed

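The assay was 10x Chromium 3′ single-cell RNA-seq (v2 chemistry), per the labels' protocols. The authors deposited 1 matrix of UMI counts per gene and barcode for each group, built on mm10, per the submitters' processing notes, by Cell Ranger 3.1.0, a version per the file headers. The deposited counts are whole numbers and not normalized. The annotation release and the use of strand are not given in the sources used here. GENCODE release M21 supplied positions and overlaps for 31011 of the 31053 gene identifiers, and 35 symbols stand on more than 1 identifier, whose rows were not merged.

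Raw counts were summed over the cells of a set and scaled to CPM. No pseudocount was added to ratios, and where 1 set held no UMI of a gene 3 counts over that set stood in as a floor. Genes with 10 or more CPM in either set were measured, Ascl2 left out. Intervals (Poisson for CPM, conditional binomial for ratios) are exact 95% intervals that cover counting error alone. For shares of cells and Ascl2 steps, cells were thinned once to 10000 UMIs, leaving out none. Doublets were not removed. As an alternative the 48 cells with the highest Scrublet scores (scanpy 1.11.5) were left out, since its automatic threshold marked only 8 (0.327%). The trimmed mean factors came from edgeR 4.0.16, used for nothing else. Scripts ran in Python 3.11.15 with numpy 2.4.6 and scipy 1.17.1 and were tested on simulated data.

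Named genes are the 12 largest and 12 smallest ratios at 50 or more CPM, without unnamed predicted genes, the 4 or fewer members of each list farthest from 0, and a fixed set of stem cell, Wnt, identity, bHLH and imprinted genes. A few genes that this rule picks are not reported here. The cell sets, the 37 lists and the tests were chosen with earlier results of these data known. The alternatives were other depths, cutoffs for Ascl2, CPM and fold, scalings, and cell choices, all in the closing section.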

Additional observations from a re-analysis of the deposited data

Results flagged for a closer look

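In 4 named genes the ratio passed the 1.5-fold line in opposite directions in the 2 libraries, and the difference between the libraries was not tested. Lypd8 had a log2 ratio of 1.54 in the control and -1.67 in the knockout library, where 324.7 CPM stood in Ascl2-zero and 102 CPM in Ascl2-high cells. There 10 cells held 83.9% of the UMIs of the Ascl2-zero set, with 1972 in 1 cell. Without shared barcodes its knockout value was 1.56. Ifit1 had 0.77 in the control and -2.55 (-3.36 to -1.85) in the knockout library, and -2.58 there without shared barcodes. Ifit3 had 0.96 in the control and -3.67 in the knockout library (interval -6.72 to -1.81), and -2.16 without shared barcodes. It had 2 UMIs in the Ascl2-high set of the knockout library, and 10 cells held 71.3% of those in the Ascl2-zero set. Oasl2 had 1.17 in the control and -0.73 (-1.45 to -0.09) in the knockout library, and -0.08 without shared barcodes. In the knockout library these values came from 43 Ascl2-high cells, and from 33 without shared barcodes.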

How the results depend on the processing

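No paired analysis was possible because the labels give the 8 records of a group no replicate numbers (those assigned here only name records), they are pooled in 1 matrix, and both cell sets come from 1 library. For the same reason no replicate could be left out. The numbers of higher and lower genes, 368 and 388, became 167 and 200 when cells were thinned to 10000 UMIs and the sets chosen again, and 244 and 258 when high cells needed 1 or more Ascl2 UMI per 10000. They were 99 and 121 at a minimum of 50 CPM, 2723 and 2826 with no minimum and 89 and 149 at a 2-fold line. In cells at or below the median S phase share 456 genes were higher and 594 lower. In the other alternatives they ranged from 263 to 504 and from 325 to 560. Both were lowest without metallothionein-rich cells and highest at a minimum of 5 CPM. Leaving out the metallothionein-rich cells, and leaving out the 10 richest cells per gene, were added after seeing the data. Of 97 named genes past the line, 65 stayed past it in all 21 alternatives that gave them a value. Of those inside it in at least 1, the text names Anxa1, Aurkb, Btg2, Bub1b, Bmp7, Cyp1a1, Ephb3, Hes1, Hnf4a, Ifit1, Ifit3, Itln1, Jag2, Kcnq1, Kdm5b, Kdm6a, Kdm6b, Lrig1, Mcm6, Tcf4, Tcf12, Tnfrsf19, Trp53inp1, Wnt10a and Zbtb38. Of 55 named genes inside the line, 22 were past it in at least 1 alternative other than the 2-fold line, among them Avil, Axin2, Car1, Ccnd1, Mdm2, Reg4, Smoc2 and Sox9. In 2 genes the sign turned without the 10 richest cells per set: Ang4 went from -3.36 to 1.99 and Tff3 from -1.57 to 1.06. The causes were not tested.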

Other observations

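Further lists fixed for this comparison are given as values. Most secretory genes were under 10 CPM in both sets. Of 20 goblet genes 6 were measured and 2 were lower, Tff3, a trefoil factor of mucus, at 4.60 against 13.7 CPM and Ang4, an antimicrobial gene, at 1.02 against 10.5 CPM, where 10 cells of the Ascl2-zero set held 95.1% and 99.5% of the UMIs. Of 15 Paneth-like and deep crypt secretory genes 4 were measured, Itln1 was higher at 15.0 against 9.08 CPM and Ang4 lower. Mmp7, a matrix metalloprotease gene on that list, stood at 179 against 224 CPM, and the lectin gene Reg4, on both lists, at 42.5 against 57.7 CPM. Of 17 enteroendocrine genes only Cpe was measured, at 4.38 against 11.03 CPM, and of 15 tuft genes Ptgs1, at 6.35 against 20.3 CPM, and Avil, at 62.0 against 87.7 CPM. Of 21 immune genes 3 were measured and Cd74, which escorts MHC class II, was lower at 6.21 against 13.3 CPM. Fibroblast and endothelial lists had 0 measured members. The epithelial list had 5 higher and 1 lower of 16, and its 4 members with the largest ratios were Cdx2, Lgals4, Cdx1 and Hnf4a.

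Notch genes had 2 higher, Lfng, which modifies Notch receptors, at 24.6 against 12.1 CPM and the ligand gene Jag2 at 12.3 against 8.14 CPM (inside the 1.5-fold line in 10 alternatives), and 1 lower, Hes1, of 8 measured. Chromatin and methyltransferase genes had 1 higher of 23, Uhrf1, and 3 lower, the histone demethylase genes Kdm5b (22.3 against 35.4 CPM), Kdm6a (6.28 against 11.9 CPM) and Kdm6b (29.9 against 49.1 CPM). Detoxification genes had 3 higher and 1 lower of 19. The aldehyde dehydrogenase genes Aldh1b1, at 39.9 against 15.3 CPM, and Aldh1a1, at 46.7 against 19.2 CPM, were higher and the xenobiotic-induced gene Cyp1a1 lower, at 26.4 against 64.7 CPM. Medians lay near that of all genes for glycolysis and hypoxia (0.02, 2 of 25 higher), cholesterol and fatty acid synthesis (0.11, 1 higher and 1 lower of 23), and tRNA synthetase and amino acid response genes (0.17, 1 of 33 higher).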
